A study of Mus musculus with 16 samples.

Results

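The unlinked cytokines IL-4 and IL-10, given together, were compared with vehicle in mouse dorsal root ganglia (DRG), the clusters beside the spinal cord where the cell bodies of sensory neurons lie. The libraries were chosen by treatment label: 5 combination libraries and 5 vehicle libraries, 10 of the 16 in the series. All mice were C57BL/6 and had received 20 µl of 2% carrageenan, an irritant of the paw, in the plantar skin, the same dose in both groups. After 6 days the combination group got 0.5 µg of each cytokine by the intrathecal route and the vehicle group got PBS. Lumbar ganglia were collected 6 hours after that. The 6 other libraries came from mice given 1 µg of a fusion protein that joins both cytokines, and they enter below only as a reference. The labels give no age or sex and do not say whether each library is 1 mouse, so p-values measure the spread between these libraries, which may be partly technical. There was no group without carrageenan.

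IL-4 binds Il4ra, which pairs with Il2rg or with Il13ra1, and signals through JAK1 and JAK3 or TYK2 to the transcription factor STAT6. IL-10 binds Il10ra, which pairs with Il10rb, and signals through JAK1 and TYK2 to STAT3, whose targets include the feedback inhibitor Socs3. In a ganglion these receptors are found on macrophages and other immune cells as well as on neurons and glia. Sensory neurons turn stimuli into firing through TRP, Piezo and other channels, carry action potentials with sodium and potassium channels, and release neuropeptides and glutamate. Satellite glia wrap their cell bodies, and Schwann cells wrap their axons.

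Values are given as scaled values, whole numbers recovered from the variance-stabilised table, in order of replicate from 1 to 5. They are proportional to reads within a gene and are not read counts, and the read depth is unknown. Differences are log2 differences of the combination minus vehicle in the variance-stabilised table, with the SE of limma. A mean of 6.99 or more across the 16 libraries, a scaled value of 31.8, was needed for a gene to be tested, which left 13385 of 36722 genes. A gene is said to have risen or fallen when its Benjamini-Hochberg adjusted p in limma was under 0.05. Of the tested genes 24.2% were called higher and 12.3% lower, 36.5% in all, and these shares are the background for every count of list members below. All 5 combination libraries lay above all 5 vehicle libraries for 15.1% of the genes and below them for 7.91%. Differences were small: 235 of the 3240 higher genes and 367 of the 1651 lower genes moved by 0.5 or more, and 1 and 12 by 1 or more.

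GC content and the numbering of the samples moved with the groups. Genes called higher had a median GC content of 42.8% and genes called lower 51.9%, against 45.7% over all tested genes. Among genes with a GC content of 27.5% to 42.0% the calls were 40.3% higher and 0.894% lower. Between 50.2% and 71.3% they were 4.66% higher and 32.7% lower. Each library's slope on GC content, in log2 units per SD of GC, ran from 9.28e-05 to 0.158 in vehicle and from -0.148 to -0.0278 in the combination, without overlap. The labels number the samples 1 to 8 and 12 to 19. All combination libraries carry numbers 13 to 17, while vehicle replicates 1 to 4 carry 1 to 4 and only replicate 5, number 18, is late. For these reasons lists below are also counted with GC and length trends removed from each library, with the late number as a term in the model, or with both, called both adjustments from here on. With trends removed 19.4% of genes were called higher and 7.6% lower, with the late number 20.2% and 11.5%, and among late-numbered libraries alone, with a single vehicle library, 2.49% and 3.22%. With trend removal and late number at once 9.34% of genes were called higher and 3.8% lower, and 970 of the genes called higher and 369 of those called lower were shared with the calls without them. What the GC trend and the numbering contribute to any result was not tested.

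**Figure D1:**
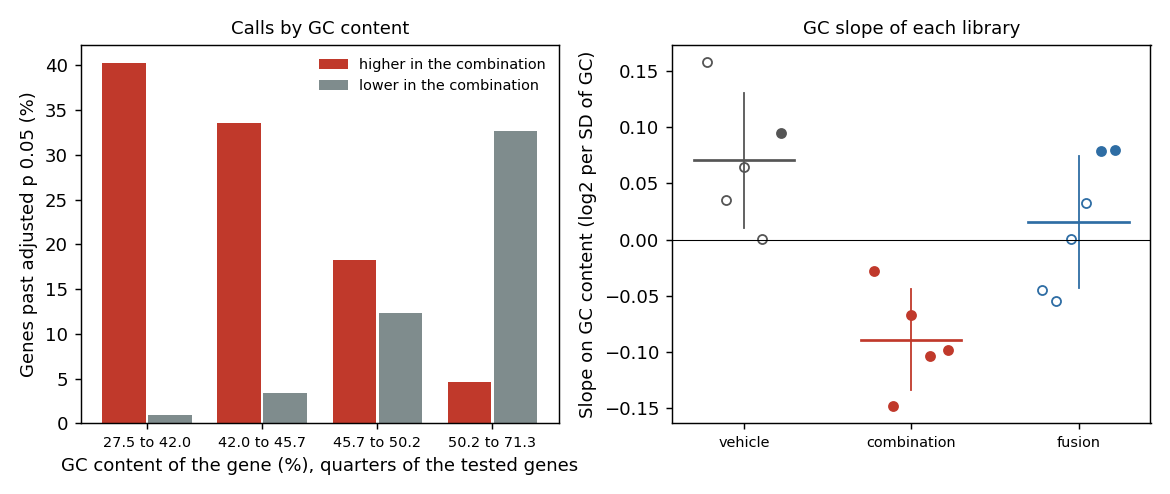
Left, percentage of tested genes called higher or lower in the combination than in vehicle (y) in 4 bins of GC content with about equal numbers of genes (x). Right, slope of each library on GC content (y) by group, with open points for samples numbered 1 to 8, filled points for 12 to 19, and lines for mean and SD; the calls turn from 40.3% higher in the lowest bin to 32.7% lower in the highest, and the vehicle and combination slopes do not overlap.

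The tissue matched its label. Sensory neuron markers were present throughout, with a summed scaled value of 193698 to 236339 in vehicle and 210195 to 260357 in the combination. Of 14 spinal cord neuron and oligodendrocyte markers only 3 passed the filter, and Olig1, Olig2, Opalin and Slc32a1 stood at a scaled value of 1 or 0 in at least 8 of the 10 libraries. In bulk tissue, fewer cells of a type and less RNA per cell cannot be told apart, and this holds for every marker below. Among these 10 libraries vehicle replicate 1 and combination replicate 1 stood furthest from the others, with a highest correlation with any other library of 0.988 and 0.989. Of the 136 called results of named genes, 21 lost their call without both: Atp6v0c, Bcl3, Cd209a, Cd79a, Cebpb, Gadd45g, Hoxb8, Ifit3b, Mgl2, Mpo, Mrgpra3, Nfkb2, Pdk4, Pecam1, Plaur, Rplp2, Sbno2, Tnfrsf1a, Zfp36, mt-Rnr1 and mt-Rnr2.

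**Figure D2:**
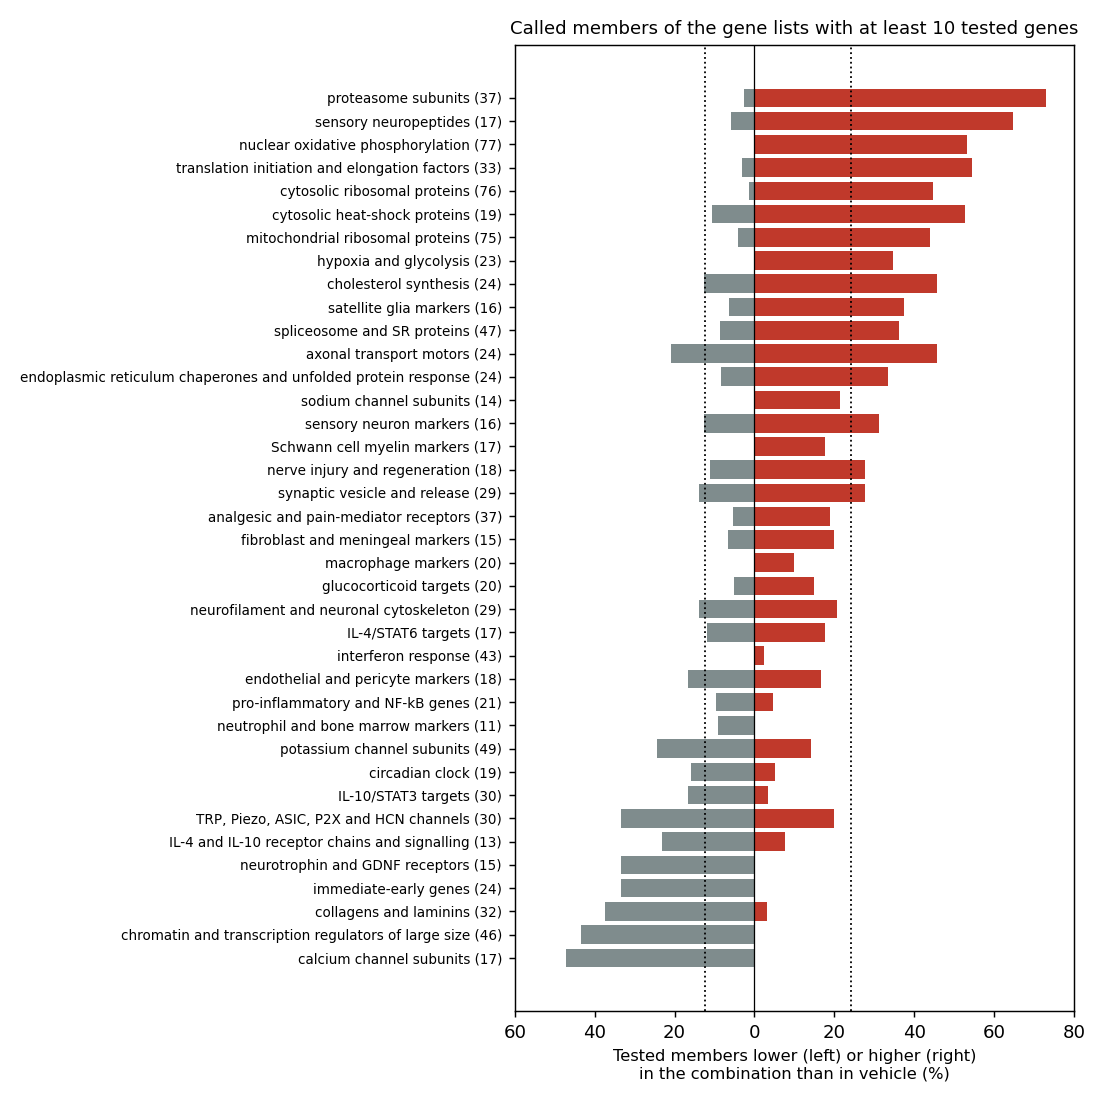
Percentage of tested members called higher (right) or lower (left) in the combination than in vehicle for each gene list with at least 10 tested genes, whose number stands in brackets; dotted lines mark the background of 24.2% higher and 12.3% lower. Proteasome subunits (27 of 37 higher) stand at the top and calcium channel subunits (8 of 17 lower) at the bottom.

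Few receptors and signalling parts of the cytokines were called, and those that were went in both directions. Of 13 tested genes 1 rose, 3 fell and 9 did not pass, with a median difference of 0.09 against 0.06 over all tested genes. Jak1, the kinase both receptors use (ENSMUSG00000028530, GRCm38 chromosome 4, 101152367 to 101265282), stood at 10900, 11487, 11484, 12576 and 11637 in vehicle and at 12609, 14594, 14582, 14539 and 16572 in the combination. Every combination library was above every vehicle library, and the difference was 0.32 ± 0.08 (adjusted p = 0.00292). Jak3, the kinase bound to Il2rg (ENSMUSG00000031805, GRCm38 chromosome 8, 71676296 to 71690575), stood at 148, 127, 112, 95 and 128 in vehicle and at 70, 52, 51, 87 and 33 in the combination. All 5 combination libraries lay below vehicle and the difference was -0.54 ± 0.11 (0.00133). Tyk2, the kinase of Il10rb and Il13ra1, went from 268, 266, 320, 261 and 261 to 216, 172, 199, 217 and 185, again without overlap (-0.33 ± 0.07, 0.00157). Cish, a feedback inhibitor that STAT proteins induce, went from 171, 162, 129, 138 and 156 to 115, 94, 87, 92 and 119. Its groups did not overlap either (-0.33 ± 0.10, 0.0137), and under both adjustments the difference turned to 0.0665.

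The receptor chains themselves did not pass. Il4ra stood at 1327, 1037, 819, 706 and 1024 in vehicle and 751, 812, 900, 782 and 846 in the combination, a difference of -0.21 ± 0.17 (0.349). Vehicle replicate 1 was the highest of the 10 libraries for this gene, and the groups overlapped. Il10rb came closest to the threshold at 0.17 ± 0.07 (0.0506), with no overlap between 613 to 699 in vehicle and 702 to 795 in the combination. It passed with the late number in the model (0.25, 0.0364), without combination replicate 1 and without vehicle replicate 4, where its differences were 0.191 and 0.195. Il10ra (0.09 ± 0.11), Il2rg (0.09 ± 0.11) and Il13ra1 (0.14 ± 0.16) had adjusted p of 0.533, 0.543 and 0.523. The transcription factors Stat3 (-0.06 ± 0.09, 0.626) and Stat6 (0.11 ± 0.07, 0.192) did not pass either. Jak3, Tyk2 and Cish have GC contents of 56.9%, 51.2% and 52.6%. With GC and length trends removed none of these 3 passed (adjusted p = 0.24, 0.201 and 0.69), while Jak1, with a GC content of 43.9%, passed at 0.29 (0.00133). Under both adjustments Jak1, the only one of the 13 called, passed as well (0.0367).

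**Figure D3:**
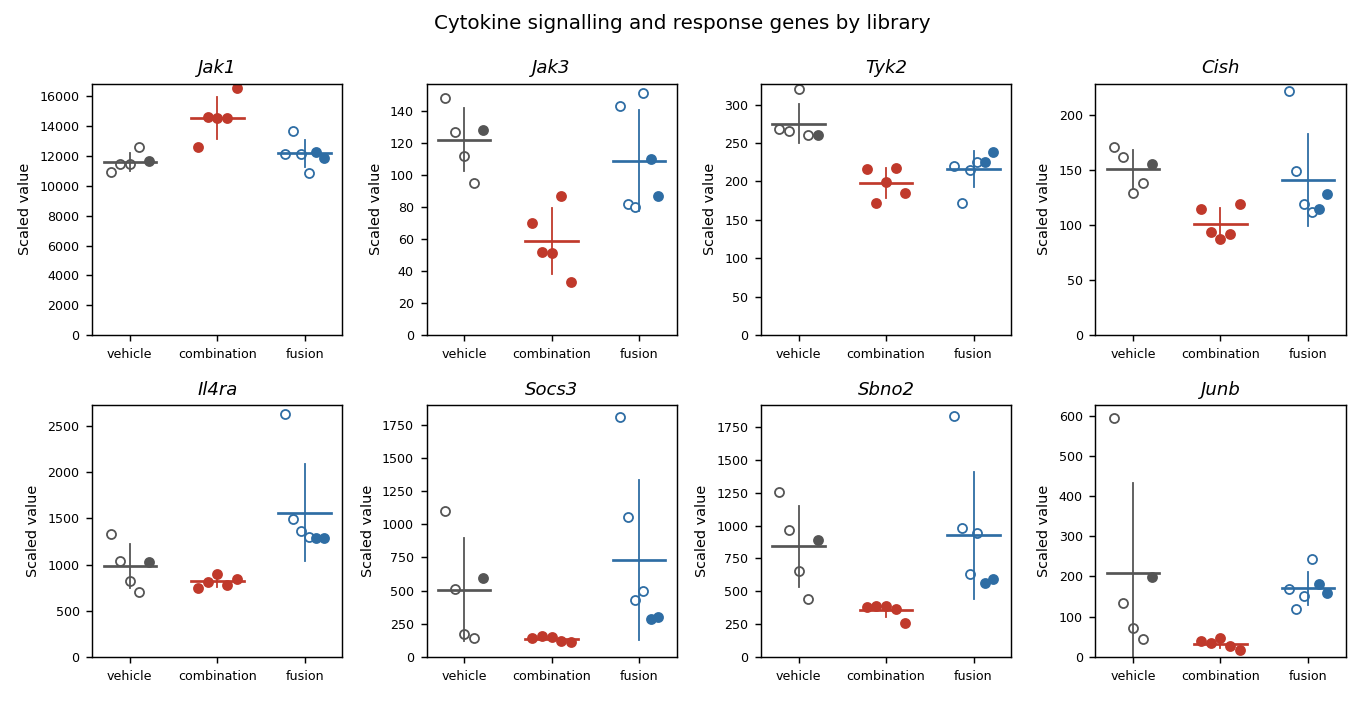
Scaled value (y) of 8 signalling and response genes in each library, by group (x), with open points for samples numbered 1 to 8, filled points for 12 to 19, and lines for mean and SD. Jak1 is above vehicle in all 5 combination libraries and Jak3, Tyk2, Cish and Sbno2 below it in all 5, while vehicle replicate 1 is the highest vehicle library for Il4ra, Socs3, Sbno2 and Junb.

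IL-4/STAT6 targets moved in both directions. Of 17 tested, 3 rose, 2 fell and 12 did not pass, with a median of -0.00199. The 3 that rose are lectins of resident or alternatively activated macrophages and dendritic cells. Mrc1, the mannose receptor, stood at 1035, 690, 534, 494 and 676 in vehicle and 905, 930, 999, 768 and 1279 in the combination (0.47 ± 0.15, 0.023). Replicate 1 of vehicle lay inside the combination range and the other 4 below it. Cd209a went from 47, 48, 54, 43 and 39 to 83, 70, 69, 44 and 142 (0.33 ± 0.11, 0.0207), with combination replicate 5 highest, and differed by 0.21 without that library. Mgl2, chosen after its values were seen, ran from 186 to 344 in vehicle and from 259 to 450 in the combination (0.35 ± 0.13, 0.048), and from 88 to 184 with the fusion protein, so that the direct contrast of combination minus fusion was 0.88 ± 0.13 (0.00054). Arg1, the arginase of such macrophages and also chosen after its values were seen, stood at 37, 14, 16, 4 and 22 and 43, 14, 39, 25 and 153, and did not pass (0.44 ± 0.26, 0.197). Ccl22, a chemokine for T cells, fell, from 103, 66, 50, 15 and 69 to 42, 17, 12, 7 and 16 (-0.56 ± 0.19, 0.026). Most combination values of Ccl22 lay below the level that the filter asked of the mean of all libraries. Only Mrc1, Cd209a, Mgl2, Ccl22 and Cish were called among the 17, and the call of Mrc1 ended without combination replicate 5 (0.37), vehicle replicate 3 (0.40) or vehicle replicate 4 (0.38). That of Ccl22 ended without vehicle replicate 1 (-0.46), 2 (-0.54) or 5 (-0.53) and without combination replicate 3 (-0.53) or 4 (-0.50), and that of Mgl2 without 7 of the 10 libraries. Under both adjustments 0 of the 17 were called.

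Called IL-10/STAT3 targets were lower, apart from a scavenger receptor. Of 30 tested, 1 rose, 5 fell and 24 did not pass, with a median of -0.14. The share lower, 16.7%, was near the 12.3% of all tested genes, and the share higher was 3.33% against 24.2%. Of the 30 members 25 were found in the RefSeq promoter table (GRCm38.p6), with 31 windows of the 250 bases before a start site. The spacing that STAT3 prefers, TTCNNNGAA on either strand, was found in 6 of the 31 windows and in 7.02% of all 32851 windows of that length. The STAT6 motif, with 1 more base of spacing, was found in 3 of the 31 and in 5.85% of all, and a stretch cannot match both from the same base. In 18 windows of 12 matched IL-4/STAT6 targets the STAT6 motif was found in 0 and the STAT3 motif in 1. The windows of Sbno2 and Zfp36, both called lower, and of Socs3, the feedback inhibitor of the panel, are shown with the match in capitals. Fcgr1 and Il1r2, the other IL-10/STAT3 members with a match to the STAT3 motif, did not pass. A match is a description of letters, not of binding.
Sbno2, chr10:80102703-80102952, minus strand: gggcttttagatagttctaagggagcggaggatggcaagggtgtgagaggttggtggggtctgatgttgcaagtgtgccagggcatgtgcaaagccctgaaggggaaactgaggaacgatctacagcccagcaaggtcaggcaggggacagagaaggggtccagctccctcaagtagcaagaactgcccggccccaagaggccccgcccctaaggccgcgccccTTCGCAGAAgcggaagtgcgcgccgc
Sbno2, chr10:80101188-80101437, minus strand: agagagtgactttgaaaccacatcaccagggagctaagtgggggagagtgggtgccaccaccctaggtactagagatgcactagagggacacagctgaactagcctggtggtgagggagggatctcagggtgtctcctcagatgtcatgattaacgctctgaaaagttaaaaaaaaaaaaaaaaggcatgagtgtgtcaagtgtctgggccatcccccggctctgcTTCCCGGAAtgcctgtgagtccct
Zfp36, chr7:28379229-28379478, minus strand: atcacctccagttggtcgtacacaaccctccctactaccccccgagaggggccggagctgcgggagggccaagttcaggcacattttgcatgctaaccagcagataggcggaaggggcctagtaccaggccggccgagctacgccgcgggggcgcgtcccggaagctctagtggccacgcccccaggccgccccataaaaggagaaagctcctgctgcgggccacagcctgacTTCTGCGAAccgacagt
Socs3, chr11:117969367-117969616, minus strand: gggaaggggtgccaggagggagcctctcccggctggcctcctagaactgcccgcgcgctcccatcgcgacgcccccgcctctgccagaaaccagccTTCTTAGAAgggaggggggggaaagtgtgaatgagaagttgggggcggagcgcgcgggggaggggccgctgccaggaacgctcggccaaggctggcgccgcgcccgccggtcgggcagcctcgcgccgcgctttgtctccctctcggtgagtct

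Sbno2, a corepressor downstream of IL-10 receptor signalling (ENSMUSG00000035673, GRCm38 chromosome 10, 80056992 to 80105571), stood at 1257, 966, 654, 440 and 892 in vehicle and at 382, 384, 391, 367 and 261 in the combination. All 5 combination libraries were below vehicle, and vehicle replicate 4 was the lowest of its own group (-0.96 ± 0.28, 0.0141). The call ended without vehicle replicate 1 and combination replicate 1 together (-0.84), with the late number (0.183) and with trends removed (0.175). Socs3 stood at 1102, 514, 174, 142 and 593 in vehicle and at 140, 159, 150, 123 and 115 in the combination. Vehicle replicate 4 lay inside the combination range and the other 4 above it, from 174 to 1102, and a difference of -1.09 ± 0.48 did not pass (0.089), although it passed without vehicle replicate 4 (-1.35). Cebpb, a transcription factor of the acute phase, went from 67, 47, 30, 28 and 35 to 14, 19, 18, 21 and 13 without overlap (-0.38 ± 0.11, 0.0118), and its difference turned to 0.24 under both adjustments. All combination values of Cebpb lay below the level that the filter asked of the mean of all libraries. Gadd45g, a stress-response gene, went from 359, 140, 95, 40 and 223 to 65, 63, 68, 53 and 22, with vehicle replicate 4 below most combination libraries (-0.75 ± 0.25, 0.0255), and its call ended without combination replicate 5 (-0.64), vehicle replicate 1 (-0.53) or vehicle replicate 5 (-0.65). Zfp36, a protein that destabilises cytokine mRNAs, and Bcl3, a nuclear partner of NF-kB, both chosen after their values were seen, differed by -0.68 ± 0.24 (0.0381) and -0.70 ± 0.23 (0.0286), and both calls ended without any one of combination replicates 2, 4 and 5 and vehicle replicates 1, 2 and 5 (-0.67 to -0.56 and -0.69 to -0.54).

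Cd163, the haemoglobin scavenger receptor of macrophages, was the member that rose, from 204, 133, 116, 123 and 154 to 171, 181, 197, 190 and 305 (0.33 ± 0.11, 0.0268). Combination replicate 5 was the highest and vehicle replicate 1 lay inside the combination range. The call ended without combination replicate 5 (0.22) or vehicle replicate 2, 3 or 4 (0.31, 0.28 and 0.29). Omission of vehicle replicate 1, of vehicle replicate 5 or of combination replicate 5 left 2 of the 5 lower, and omission of vehicle replicate 2, combination replicate 2 or combination replicate 4 left 3. They became 0 when replicate 1 of both groups was left out, 0 with the late number and 0 with trends removed. The list medians were then -0.10, 0.04 and -0.06. Among late-numbered libraries alone, with a single vehicle library, the list median was -0.11. The list median of each library, relative to the vehicle mean, ran from -0.24 to 0.31 in vehicle and from -0.23 to 0.03 in the combination, so the groups overlapped. Il1rn, which blocks the IL-1 receptor and was chosen after its values were seen, stood at 131, 82, 41, 21 and 117 and 88, 57, 44, 33 and 64 and did not pass (-0.15 ± 0.33, 0.755).

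Few interferon-response genes were called with the combination. Of 43 tested, 1 rose, 0 fell (4 at an unadjusted p under 0.05 in limma) and 42 did not pass, with a median of -0.15. The lower members became 4 without combination replicate 1, 4 without vehicle replicate 5, 2 without vehicle replicate 4 and 3 without replicate 1 of both groups. With the late number 5 were higher and 0 lower, and under both adjustments 2 and 0. The 1 was Ifit3b, an antiviral protein chosen after its values were seen, at 56, 75, 108, 149 and 65 in vehicle and 155, 116, 138, 197 and 201 in the combination (0.49 ± 0.15, 0.0164), and its call ended without vehicle replicate 1 (0.42). Isg15, a ubiquitin-like antiviral protein, also chosen after its values were seen, stood at 92, 55, 62, 57 and 48 and 96, 50, 56, 81 and 83 (0.10 ± 0.11, 0.488). Against the fusion protein, where 7.35% of all tested genes were called lower in the combination and 22.2% higher, 41 of the 43 members were lower in the combination and 0 higher, also at an unadjusted p in limma. Isg15 ranged from 512 to 767 with the fusion protein, and combination minus fusion was -2.09 ± 0.10 (1.54e-10). The summed level of the 43 genes ran from 15919 to 25976 in vehicle, from 17253 to 23127 in the combination and from 31472 to 70575 with the fusion protein.

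Inflammatory genes and immune cell markers moved little. Pro-inflammatory and NF-kB genes held 21 tested members, of which 1 rose, 2 fell and 18 did not pass, with a median of -0.03. Il1b and Ccl2, both chosen after their values were seen, did not pass. Il1b, a cytokine that sensitises nociceptors, stood at 55, 52, 36, 16 and 39 and 91, 42, 50, 35 and 77 (0.23 ± 0.37, 0.665), and the monocyte chemokine Ccl2 at 110, 101, 57, 35 and 73 and 85, 45, 34, 35 and 52 (-0.25 ± 0.30, 0.554). The 2 that fell were Nfkb2 (-0.45 ± 0.14, 0.0193), a subunit of NF-kB, and Tnfrsf1a (-0.50 ± 0.16, 0.019), a receptor of TNF, and both calls ended without vehicle replicate 1 (-0.40 and -0.42), that of Tnfrsf1a also without combination replicate 4 (-0.45). Nfkb2 turned to 0.28 under both adjustments. The 2 lower became 4 without combination replicate 1, and with the late number 3 were higher and 0 lower, under both adjustments 0 and 0. Macrophage markers gave 2 higher, 0 lower (0 at an unadjusted p under 0.05 in limma) and 18 not passed of 20, the 2 being Mrc1 and Cd163, whose calls ended without single libraries as given above. With the late number 3 were higher, under both adjustments 1. Their summed level was 10218 to 14688 in vehicle and 12700 to 16412 in the combination. Of 6 mast cell markers 2 rose: Cpa3, a mast cell protease, went from 87, 79, 69, 74 and 73 to 142, 112, 100, 101 and 113 (0.29 ± 0.07, 0.00321) and the chymase Cma1 from 34, 16, 27, 24 and 23 to 71, 38, 61, 88 and 62 (0.50 ± 0.15, 0.0132). Neither gene overlapped between the groups, and both were chosen after their values were seen. With trends removed Cma1 passed (0.48, 0.00783) and Cpa3, with a GC content of 37.4%, turned to -0.04 (0.688). Most vehicle values of Cma1 lay below the level that the filter asked of the mean of all libraries. Of the 6 markers 1 was higher with the late number, 2 with trends removed and 0 under both adjustments. The summed level of 8 mast cell markers was 1790 to 2027 in vehicle and 2022 to 2355 in the combination. Gzma, a protease of cytotoxic lymphocytes and the only called member of 4 T and NK cell markers, was likewise chosen after its values were seen. It went from 13, 8, 14, 9 and 5 to 25, 22, 26, 35 and 35 (0.39 ± 0.11, 0.0108), under the 48 to 145 of the fusion protein. The vehicle values of Gzma lay below the level that the filter asked of the mean of all libraries, the fusion protein group included. Of these 4 markers 1 was higher with trends removed, 0 with the late number and 0 under both adjustments.

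Immediate-early genes, the transcripts that neurons and glia switch on within minutes of firing or handling, fell where they were called. Of 24 tested 0 rose (0 at an unadjusted p under 0.05 in limma), 8 fell and 16 did not pass, with a median of -0.35. Junb, a part of AP-1, showed how the vehicle libraries spread, at 595, 133, 73, 44 and 198, against 39, 35, 48, 26 and 18 in the combination (-1.07 ± 0.32, 0.0168). Vehicle replicate 1 was more than 10 times vehicle replicate 4, which lay inside the combination range. Myc, a growth regulator, was steadier, at 297, 269, 213, 195 and 268 and 156, 160, 150, 127 and 154, with no overlap (-0.47 ± 0.09, 0.000665). Ier2 went from 96, 59, 47, 35 and 43 to 24, 18, 27, 20 and 7, also without overlap (-0.52 ± 0.11, 0.00158). All combination values of Ier2 lay below the level that the filter asked of the mean of all libraries. Nr4a1, an orphan nuclear receptor, went from 504, 485, 389, 412 and 552 to 432, 295, 320, 254 and 220 (-0.50 ± 0.11, 0.00261), and the synaptic gene Arc from 134, 98, 113, 73 and 130 to 80, 53, 58, 42 and 76 (-0.41 ± 0.10, 0.0043). Jun, which also marks injured neurons, went from 1642, 1114, 800, 819 and 991 to 548, 573, 649, 581 and 639 without overlap (-0.69 ± 0.18, 0.00668). Fos, chosen after its values were seen, did not pass, at 278, 177, 65, 70 and 167 and 93, 52, 44, 42 and 69 (-0.63 ± 0.30, 0.111). The median GC content of the list is 53.9%, and with trends removed 2 members were lower, with the late number 4, and with both 0. The list medians were then -0.19, -0.16 and 0.09. Among late-numbered libraries alone, with a single vehicle library, the list median was -0.39.

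Neuropeptide genes rose more often than the background. Of 17 tested 11 rose, 1 fell and 5 did not pass, with a median of 0.30. Scg2, the precursor of secretoneurin and a cargo of dense-core vesicles (ENSMUSG00000050711, GRCm38 chromosome 1, 79434669 to 79440120), is shown with its promoter because it moved most clearly. The cyclic AMP response element TGACGTCA was found in 4 of 21 windows of 14 matched neuropeptide genes, in Cartpt, Chgb, Scg2 and Sst, and in 1.55% of all windows. Of these 4 genes Scg2 and Chgb rose, and Cartpt and Sst did not pass.
Scg2, chr1:79440027-79440276, minus strand: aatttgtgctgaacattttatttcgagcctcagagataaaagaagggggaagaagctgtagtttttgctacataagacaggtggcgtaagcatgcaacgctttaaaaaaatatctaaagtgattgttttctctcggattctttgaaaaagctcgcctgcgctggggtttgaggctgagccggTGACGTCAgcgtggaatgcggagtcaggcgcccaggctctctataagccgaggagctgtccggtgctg

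Scg2 stood at 7952, 7566, 8800, 7989 and 7248 in vehicle and 10177, 12101, 12795, 12565 and 13263 in the combination. Every combination library was above every vehicle library (0.61 ± 0.09, 4.03e-05), and the fusion protein libraries, at 9724 to 12436, lay in the same range (0.15 ± 0.08 for combination minus fusion, 0.164). Nts, neurotensin, went from 128, 127, 133, 145 and 111 to 251, 235, 186, 251 and 215 without overlap (0.52 ± 0.08, 0.000104). Nppb, the natriuretic peptide of itch neurons, went from 167, 157, 154, 159 and 134 to 369, 215, 232, 253 and 285, also without overlap (0.53 ± 0.11, 0.0011). Tac1, the precursor of substance P, and Calca, that of CGRP, both chosen after their values were seen, rose by 0.34 ± 0.08 (0.00399) and 0.35 ± 0.09 (0.00613). Calca did not overlap, at 11642 to 14285 in vehicle and 15537 to 19189 in the combination. Adcyap1, Chgb, Gal, Nmb, Nucb2 and Penk were the other genes that rose. Vgf, a granin-like precursor of neurotrophin-induced peptides (ENSMUSG00000037428, GRCm38 chromosome 5, 137026392 to 137033351), went the other way, from 1240, 597, 495, 375 and 550 to 237, 246, 281, 236 and 305. All combination libraries were below vehicle, and vehicle replicate 1 was highest at more than 2 times the next (-0.95 ± 0.20, 0.00217). Combination minus fusion was -0.81 ± 0.20 for Vgf (0.0108), the only one of the 17 that differed between the treatments. The GC contents of Nts, Scg2 and Vgf are 35.6%, 39.5% and 57.4%. With trends removed 5 peptide genes were higher and 1 lower, and with the late number as well 4 and 0. The 11 higher became 6 without combination replicate 5 and 7 without combination replicate 3 or without vehicle replicate 2, 4 or 5.

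Calcium channel subunits fell where they were called: of 17 tested 0 rose (1 at an unadjusted p under 0.05 in limma), 8 fell and 9 did not pass, with a median of -0.17. Cacna1a, the pore of P/Q-type channels at nerve terminals (ENSMUSG00000034656, GRCm38 chromosome 8, 84388440 to 84640246), went from 1768, 1874, 1831, 2022 and 1730 to 1057, 1216, 1175, 1239 and 1313, with no overlap (-0.57 ± 0.07, 1.03e-05). Cacna1h, the T-type channel of mechanoreceptors and nociceptors, went from 776, 684, 716, 689 and 720 to 393, 401, 436, 460 and 509 without overlap (-0.59 ± 0.07, 1.72e-05). Cacnb1, an auxiliary subunit, differed by -0.41 ± 0.10 (0.00442), and Cacna1b, the N-type pore that ziconotide blocks, by -0.31 ± 0.08 (0.00337). Cacna2d1, the target of gabapentin, was among those that did not pass. The median GC content of the list is 46.7%, near that of all genes, and the median exonic length is 9763 bases against 4616. With trends removed 4 were lower, Cacna1a (-0.37, 0.000419) and Cacna1b (-0.22, 0.0101) among them, and 1 was higher. The late number gave 6 lower and 1 higher, and both adjustments 2 and 1. Omission of single libraries left 7 to 8 lower and 0 to 2 higher. None was lower than in the fusion protein group, where 3 were higher in the combination.

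Sodium channels gave 3 higher, 0 lower (1 at an unadjusted p under 0.05 in limma) and 11 not passed of 14, near the background. Scn7a, a channel that senses sodium in glia and some neurons (ENSMUSG00000034810, GRCm38 chromosome 2, 66673425 to 66784914), went from 13273, 15907, 15267, 17003 and 15023 to 18531, 22029, 20284, 19574 and 21092 without overlap (0.41 ± 0.08, 0.000797). It passed with trends removed (0.27, 0.000835) and with the late number as well (0.0132), and combination minus fusion was 0.39 ± 0.08 (0.00462). Scn3b (0.28 ± 0.08, 0.00851) and the leak channel Nalcn (0.31 ± 0.08, 0.00596) also rose. The nociceptor channels Scn9a, Scn10a and Scn11a did not pass. The 3 higher became 5 without combination replicate 1 and 6 without vehicle replicate 4, and under both adjustments 2. Of 49 potassium channels 7 rose, 12 fell and 30 did not pass. Kcnh2, a channel that helps to repolarise excitable cells, went from 1540, 988, 982, 996 and 1126 to 648, 645, 741, 631 and 669 (-0.65 ± 0.13, 0.000823). Kcnip1, a modulator of A-type current, rose from 871, 943, 933, 1069 and 1029 to 1146, 1346, 1255, 1169 and 1395 (0.34 ± 0.07, 0.000888). The groups overlapped for neither gene. Both passed with trends removed (0.00785 and 0.000381). The 12 lower were 5 with trends removed and 7 without combination replicate 4, and under both adjustments 3 were higher and 2 lower.

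Transduction and pacemaker channels were called in both directions: of 30 tested 6 rose, 10 fell and 14 did not pass. Those that rose were the P2X receptors of ATP P2rx2, P2rx3 and P2rx4 and the channels Trpa1, Trpv1 and Trpc6. Trpc6 went from 606, 636, 600, 696 and 575 to 927, 868, 881, 823 and 1130 without overlap (0.49 ± 0.08, 0.000223). Trpa1, the receptor of mustard oil, and Trpv1, that of capsaicin, were chosen after their values were seen. Trpa1 went from 1462, 1634, 1570, 1836 and 1517 to 1965, 2467, 1865, 2361 and 2331 (0.42 ± 0.09, 0.00137) without overlap, and Trpv1 differed by 0.27 ± 0.09 (0.0302) with overlap, a call that ended without vehicle replicate 2 (0.25) or 4 (0.22) and without combination replicate 3 (0.22), 4 (0.27) or 5 (0.21). The acid-sensing channels Asic1, Asic2 and Asic3 fell, as did 3 of the 4 pacemaker channels. Hcn2, which sets firing in nociceptors, went from 1111, 942, 911, 1081 and 786 to 505, 645, 772, 599 and 727 (-0.50 ± 0.10, 0.000623), and Hcn4 from 187, 163, 145, 154 and 122 to 78, 82, 106, 83 and 76 (-0.48 ± 0.08, 0.000217). Neither overlapped. Piezo1, a mechanically gated channel mostly of vessels and other non-neuronal cells, differed by -0.52 ± 0.11 (0.00136), and Piezo2, the touch channel of sensory neurons, did not pass. With trends removed 8 were higher and 2 lower, and the adjusted p of Hcn2 and Hcn4 was 0.0904 and 0.0742. With the late number as well the counts were 4 and 2.

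**Figure D4:**
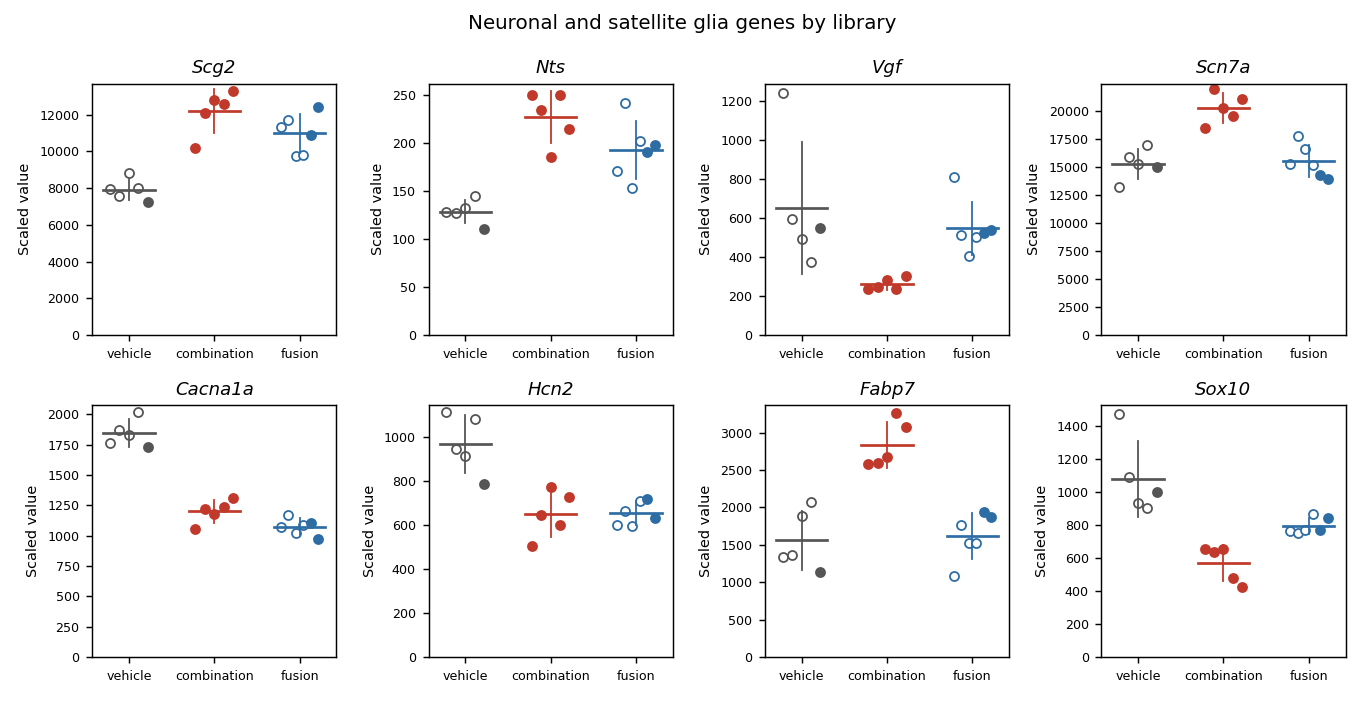
Scaled value (y) of 6 neuronal genes and the glial genes Fabp7 and Sox10 in each library, by group (x), with open points for samples numbered 1 to 8, filled points for 12 to 19, and lines for mean and SD. In all 8 panels the 5 combination libraries lie entirely above (Scg2, Nts, Scn7a, Fabp7) or entirely below (Vgf, Cacna1a, Hcn2, Sox10) the 5 vehicle libraries.

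Receptors for growth factors fell where they were called. Of 15 neurotrophin and GDNF receptor genes 0 rose (1 at an unadjusted p under 0.05 in limma), 5 fell and 10 did not pass, with a median of -0.16. Fgfr1 went from 3946, 3680, 3534, 4049 and 4063 to 2739, 2854, 3268, 2773 and 3328 without overlap (-0.35 ± 0.08, 0.00155), Igf1r differed by -0.45 ± 0.11 (0.00364), Gfra2, the neurturin receptor, by -0.33 ± 0.09 (0.00898) and Ntrk3, the receptor of NT-3, by -0.34 ± 0.10 (0.0122). With trends removed 3 were lower and 1 higher, and with the late number as well 2 and 1. Among 37 receptors of analgesics and pain mediators 7 rose, 2 fell and 28 did not pass. Mrgprx1, an itch receptor of nonpeptidergic neurons, went from 416, 480, 547, 499 and 518 to 739, 838, 732, 596 and 817 without overlap (0.50 ± 0.09, 0.000492). Mrgpra3, the chloroquine receptor, differed by 0.31 ± 0.08 (0.0081), but by -0.0173 with trends removed and -0.0698 under both adjustments. Htr2a, a serotonin receptor, differed by 0.31 ± 0.09 (0.00821). Ptger1, a receptor of prostaglandin E2, fell from 334, 315, 317, 335 and 289 to 200, 282, 256, 219 and 269 (-0.28 ± 0.08, 0.00875), but its difference was 0.0979 with trends removed and 0.17 under both adjustments. Of the 37, under both, 0 were higher and 1 lower.

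General neuronal genes were called in both directions. Of 16 sensory neuron markers 5 rose and 2 fell, and under both adjustments 0 were called. Isl1, a transcription factor of sensory neuron identity, differed by 0.25 ± 0.06 (0.00512) and Elavl4, a neuronal RNA-binding protein, by 0.32 ± 0.08 (0.0041). Of 29 cytoskeletal genes 6 rose and 4 fell, under both adjustments 1 and 1. Stmn2, a tubulin regulator of growth cones, went from 34650, 34777, 35510, 35962 and 38152 to 47109, 47557, 50717, 48434 and 51189 (0.45 ± 0.06, 3.95e-05), while Map1a, a microtubule-associated protein, went from 30315, 32320, 29919, 38774 and 27613 to 17811, 21044, 23409, 19442 and 24723 (-0.58 ± 0.11, 0.000403). Neither gene overlapped, and their GC contents are 40.9% and 53.3%. With trends removed Stmn2 passed (0.31, 0.00212) and Map1a did not (-0.20, 0.211). Axonal motors gave 11 higher and 5 lower of 24 (2 and 1 under both adjustments), with Dync1i2, a dynein chain, at 0.41 ± 0.07 (0.000325) and Kif3a, a kinesin, at 0.35 ± 0.07 (0.000603). Kif21b (-0.37 ± 0.06, 0.000121) and Kif1c (-0.35 ± 0.06, 0.000448) fell, and neither passed with trends removed (0.898 and 0.073). Kif21b turned to 0.0873 under both adjustments.

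Synaptic genes gave 8 higher and 4 lower of 29, and 0 and 2 under both adjustments. Snap25, a part of the release machinery, went from 27393, 26985, 27518, 31642 and 30237 to 36879, 37924, 36571, 36721 and 45675 (0.43 ± 0.09, 0.00119), and Slc17a6, the transporter that fills vesicles with glutamate, from 4660, 4963, 4949, 5366 and 5395 to 5519, 7299, 7357, 7425 and 7214 (0.44 ± 0.08, 0.000526). Both were without overlap, and Unc13a, a vesicle-priming factor, differed by -0.39 ± 0.09 (0.00275) but by 0.0169 with trends removed and 0.0859 under both adjustments. Nerve injury genes gave 5 higher and 2 lower of 18, with 3 higher without combination replicate 5 or vehicle replicate 5, and 1 and 0 under both adjustments. Gap43, a growth-cone protein, went from 3580, 3051, 3377, 3064 and 3647 to 3988, 4017, 4478, 4254 and 4518 without overlap (0.34 ± 0.08, 0.00359), but differed by 0.02 with trends removed (0.887) and -0.20 under both adjustments. Besides Jun, Plaur, the urokinase receptor, fell (-0.41 ± 0.12, 0.0124).

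Among satellite glia markers Fabp7 rose and Sox10 fell. Of 16 tested 6 rose, 1 fell and 9 did not pass, with a median of 0.15. In the model with the late number 4 were higher and 1 lower, and under both adjustments 1 and 1. Per library the list median lay 0.12 to 0.30 above the vehicle mean in the combination and at -0.12 to 0.13 in vehicle. Fabp7, a fatty acid carrier that marks these cells in ganglia (ENSMUSG00000019874, GRCm38 chromosome 10, 57784881 to 57788450), went from 1330, 1363, 1881, 2076 and 1140 to 2578, 2595, 2680, 3257 and 3080. There was no overlap (0.84 ± 0.15, 0.000396), and combination minus fusion was 0.78 ± 0.14 (0.00337). Ednrb, an endothelin receptor, went from 1939, 2070, 2274, 2504 and 2003 to 2985, 3440, 3057, 3071 and 3128 (0.52 ± 0.09, 0.000257), and S100b, a calcium-binding protein of glia, from 11810, 11889, 11912, 12905 and 13003 to 16650, 16208, 16721, 15929 and 17096 (0.42 ± 0.06, 9.35e-05), both without overlap. Sox10, the transcription factor shared by satellite glia and Schwann cells (ENSMUSG00000033006, GRCm38 chromosome 15, 79154908 to 79165240), fell from 1470, 1088, 931, 899 and 1001 to 652, 635, 654, 479 and 422 (-0.80 ± 0.11, 5.15e-05), also without overlap. The GC contents of Fabp7 and Sox10 are 38.4% and 57.7%. Both passed with trends removed, at 0.50 (0.0334) and -0.51 (0.00052). With the late number as well Sox10 passed (0.0329) and Fabp7 did not (0.237). Schwann cell myelin markers gave 3 higher, 0 lower (1 at an unadjusted p under 0.05 in limma) and 14 not passed of 17, under the background, with Pmp2 at 0.51 ± 0.14 (0.0102). The 3 higher became 1 without any one of combination replicates 2, 3 and 5 and vehicle replicates 1, 2 and 3. The late number gave 0 higher and 2 lower, and both adjustments 0 and 0.

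Collagens and laminins fell where they were called, but for 1. Of 32 collagens, laminins and related genes 1 rose, 12 fell and 19 did not pass, with a median of -0.24. Hspg2, perlecan, the heparan sulphate proteoglycan of basement membranes (ENSMUSG00000028763, GRCm38 chromosome 4, 137468769 to 137570630), went from 1545, 1630, 1388, 1269 and 1553 to 855, 682, 630, 539 and 484 without overlap (-1.09 ± 0.12, 9.71e-06). Col4a2, a chain of basement membrane collagen, went from 1449, 1194, 876, 910 and 1299 to 718, 600, 642, 652 and 617 (-0.70 ± 0.12, 0.000217), Lama5, a laminin chain, from 210, 230, 201, 172 and 217 to 114, 118, 81, 87 and 77 (-0.67 ± 0.08, 1.87e-05), and neither overlapped. Col18a1, the source of endostatin, differed by -0.85 ± 0.15 (0.000369) and Col1a1, the fibrillar collagen of fibroblasts, by -0.72 ± 0.17 (0.00398). With trends removed 6 were lower, Hspg2 (-0.68, 0.000633) and Col4a2 (-0.56, 0.00276) among them, and with the late number as well 1, which was Hspg2 (0.033). Of 15 fibroblast and meningeal markers 3 rose and 1 fell, near the background, under both adjustments 2 and 0. Lum, lumican, went from 956, 871, 839, 1155 and 784 to 1487, 1445, 1560, 1481 and 1813 (0.69 ± 0.10, 5.26e-05), and Dcn, decorin, from 8981, 10086, 9331, 11230 and 8712 to 16402, 14455, 12396, 12811 and 17844 (0.60 ± 0.10, 0.000217), and neither overlapped. Aspn, asporin, one of the 12 largest increases, went from 29, 36, 66, 62 and 48 to 74, 141, 105, 241 and 126 (0.72 ± 0.16, 0.00241). Ogn (0.66 ± 0.14, 0.00105) and Omd (0.68 ± 0.13, 0.000715), of the same family, were chosen after their values were seen. These 5 genes have GC contents of 36.2% to 37.5%. With trends removed Lum (0.00912), Dcn (0.00342) and Ogn (0.0495) passed and Aspn (0.0678) and Omd (0.0632) did not.

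Of 18 vessel markers 3 rose and 3 fell, and under both adjustments 2 and 0. Plvap, a protein of endothelial fenestrae, went from 266, 189, 161, 181 and 156 to 123, 111, 78, 128 and 78 (-0.52 ± 0.10, 0.000729) and Pdgfrb, a pericyte receptor, from 692, 864, 742, 681 and 895 to 594, 553, 498, 483 and 573 (-0.44 ± 0.11, 0.00511). Rgs5, another pericyte gene, rose from 4190, 5301, 4973, 6165 and 4802 to 6467, 7210, 6449, 6887 and 6671 (0.41 ± 0.09, 0.00126), and the endothelial adhesion protein Pecam1 by 0.25 ± 0.08 (0.0179). None of the 4 overlapped between the groups. The summed level of 18 vessel markers was 9806 to 13288 in vehicle and 11774 to 13247 in the combination, and that of 16 fibroblast and meningeal markers 42302 to 53469 and 50533 to 80393.

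Proteasome subunits were the list with the largest share higher. Of 37 tested 27 rose, 1 fell and 9 did not pass, with a median of 0.38, and 25 did not overlap upward. Psmb7, a catalytic subunit of the core (ENSMUSG00000026750, GRCm38 chromosome 2, 38588036 to 38644087), went from 2865, 2979, 2929, 3172 and 2899 to 4720, 4835, 4886, 4621 and 4652 (0.65 ± 0.06, 7.47e-07). Psma2, of the outer ring of the core, went from 1907, 1915, 1830, 2164 and 1913 to 2826, 3077, 3168, 3150 and 3327 (0.64 ± 0.06, 2.66e-06), and Psmc1, an ATPase of the cap, from 3468, 3524, 3566, 3889 and 3719 to 4900, 5245, 5747, 5450 and 5375 (0.54 ± 0.06, 9.14e-06). The interferon-inducible subunits Psmb8, Psmb9 and Psmb10 did not pass, and Psmd3 was the subunit that fell. The list median per library was 0.31 to 0.42 above the vehicle mean in the combination and -0.03 to 0.03 in vehicle. The median GC content of the list, 45.9%, is near that of all genes. With trends removed 25 were higher and 1 lower, with the late number 21 and 1, and with both 17 and 0, against backgrounds of 19.4%, 20.2% and 9.34% higher. The vehicle libraries are shared by both treatments. With the fusion protein Psmb7 ranged from 3700 to 4223, between the groups, and combination minus fusion was 0.25 ± 0.05 (0.00598).

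Other genes of protein and energy metabolism were also called higher more often than lower. Of 33 translation factors 18 rose and 1 fell, with a median of 0.28, and of 76 cytosolic ribosomal proteins 34 rose and 1 fell, with a median of 0.23. Under both adjustments these were 11 and 0, and 36 and 1. Eif3c, a scaffold of the initiation complex, went from 3936, 3541, 3802, 3706 and 3857 to 5327, 5060, 5496, 5480 and 5835 (0.51 ± 0.07, 2.55e-05), and Rpl21 from 2553, 2637, 2561, 2636 and 2585 to 3707, 3657, 3890, 3734 and 3820 (0.52 ± 0.06, 8.38e-06). Rplp2, chosen after its values were seen, was the ribosomal protein that fell, at 1508, 687, 749, 393 and 1016 in vehicle and 491, 342, 484, 395 and 303 in the combination (-0.84 ± 0.29, 0.0336), a call that ended without any one of combination replicates 2, 4 and 5 and vehicle replicates 1, 3 and 5 (-0.86 to -0.63). Of 75 mitochondrial ribosomal proteins 33 rose and 3 fell (11 and 0 under both adjustments), and Mrpl13 went from 565, 609, 583, 638 and 594 to 924, 866, 863, 876 and 953 (0.50 ± 0.06, 9.71e-06). Nuclear genes of the respiratory chain gave 41 higher and 0 lower (0 at an unadjusted p under 0.05 in limma) of 77, and 16 higher and 3 lower with trend removal and the late number. Among 47 splicing genes 17 rose and 4 fell (12 and 6 under both adjustments), with Sf3b1, a branch-site factor, at 0.40 ± 0.07 (0.00027).

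Of 19 cytosolic heat-shock genes 10 rose, 2 fell and 7 did not pass, with a median of 0.28. Hspa8, the constitutive Hsp70, went from 36258, 34856, 35353, 37182 and 37307 to 52751, 46688, 51679, 49758 and 54506 (0.49 ± 0.07, 4.38e-05), and Cct5, of the chaperonin for actin and tubulin, from 5067, 4786, 4849, 4654 and 4907 to 6173, 5925, 6838, 6500 and 6341 (0.38 ± 0.06, 8.08e-05). Both were without overlap. Bag3, a cochaperone of selective autophagy, went from 3956, 3649, 3113, 4029 and 3125 to 1867, 2496, 2785, 2071 and 2384 without overlap (-0.60 ± 0.10, 0.000219), and Hsf1, the factor that induces heat-shock genes, was the other that fell. The inducible Hsp70 genes Hspa1a and Hspa1b did not pass. Under both adjustments 5 were higher and 1 lower, and Hspa8 (0.000936), Cct5 (0.00624) and Bag3 (0.0369) were among them. In the endoplasmic reticulum 8 of 24 genes rose and 2 fell, under both adjustments 4 and 1. Hsp90b1, its Hsp90, went from 7531, 7763, 7546, 8232 and 7621 to 8858, 11413, 11221, 11280 and 10947 (0.46 ± 0.07, 0.000147), with combination replicate 1 lowest of its group, and the ubiquitin ligase Syvn1 from 868, 730, 779, 699 and 726 to 514, 426, 483, 450 and 474 (-0.58 ± 0.07, 1.91e-05).

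Genes of cholesterol synthesis were called higher more often than lower: of 24 genes 11 rose, 3 fell and 10 did not pass, with a median of 0.16. Fdft1, squalene synthase, went from 4751, 4931, 4944, 5247 and 5050 to 7911, 7213, 7335, 6858 and 8172 (0.57 ± 0.07, 1.07e-05), and Fdps, which makes its substrate, from 2426, 2336, 2398, 2352 and 2467 to 3662, 3020, 3434, 3124 and 3790 (0.48 ± 0.07, 4.1e-05). Neither overlapped. Srebf2, the transcription factor that induces the pathway, went down from 3334, 2572, 2480, 2566 and 2824 to 1978, 1707, 2093, 1666 and 2008 (-0.51 ± 0.09, 0.000267). Under both adjustments 7 were higher and 1 lower, with adjusted p = 0.00119 for Fdft1, 0.000324 for Fdps and 0.00631 for Srebf2. Combination minus fusion was 0.23 ± 0.06 for Fdft1 (0.0168), and 9 of the 24 were higher and 1 lower in the combination than with the fusion protein, against 22.2% and 7.35% of all genes. Of 23 hypoxia and glycolysis genes 8 rose and 0 fell (2 at an unadjusted p under 0.05 in limma). The late number gave 4 higher and 3 lower, and both adjustments 5 and 0. Those that rose included Pgk1, an enzyme of glycolysis, from 1354, 1331, 1412, 1463 and 1391 to 2400, 2067, 2191, 1974 and 2387 (0.62 ± 0.07, 1.09e-05) and Ldha, lactate dehydrogenase, from 6401, 5369, 5616, 4974 and 6066 to 7658, 6725, 7676, 7320 and 7606 (0.38 ± 0.08, 0.000976).

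Large chromatin regulators fell where they were called. Of 46 tested 0 rose (0 at an unadjusted p under 0.05 in limma), 20 fell and 26 did not pass, with a median of -0.19. Kmt2d, an enhancer methyltransferase (ENSMUSG00000048154, GRCm38 chromosome 15, 98831669 to 98871204), went from 1507, 1970, 1945, 1684 and 1654 to 996, 951, 764, 805 and 643 (-0.98 ± 0.11, 9.71e-06), and Setd1b from 578, 530, 482, 472 and 424 to 255, 258, 225, 210 and 175 (-0.86 ± 0.08, 2.41e-06). Rere, a corepressor, went from 1762, 2111, 1970, 2121 and 1877 to 1109, 1345, 1192, 1248 and 1014 (-0.68 ± 0.08, 1.09e-05). None of the 3 overlapped. The median GC content of the list, 44.0%, is below that of all genes, and its median exonic length is 13663 bases. With trends removed 18 were lower and 0 higher, and with the late number as well 9 and 1, against 3.8% lower over all genes. Rere passed with trends removed (-0.69, 4.77e-06). The clock gave 1 higher and 3 lower of 19 (2 and 1 under both adjustments), with Nr1d1, a repressor of the clock, from 385, 408, 442, 472 and 308 to 247, 222, 235, 264 and 251 (-0.53 ± 0.08, 9.73e-05) and its relative Nr1d2 up by 0.34 ± 0.10 (0.0146). Per1, a core clock gene that glucocorticoids also induce, went from 551, 486, 451, 456 and 657 to 355, 326, 345, 331 and 319 (-0.49 ± 0.11, 0.00145).

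**Figure D5:**
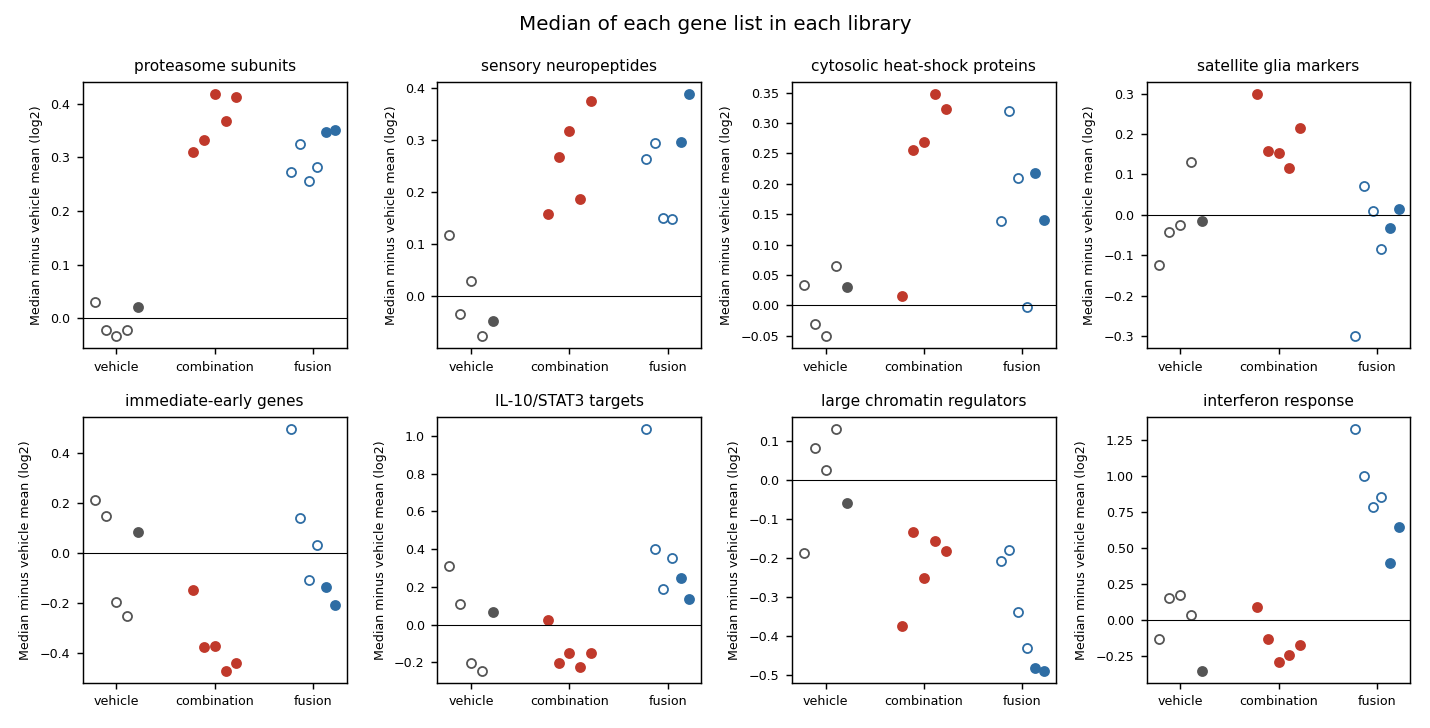
Median over the tested members of 8 gene lists in each library (y, log2 difference from the vehicle mean), by group (x), with open points for samples numbered 1 to 8 and filled points for 12 to 19. The combination lies wholly above vehicle for proteasome subunits (0.31 to 0.42 against -0.03 to 0.03) and neuropeptides, and overlaps vehicle for IL-10/STAT3 targets and interferon-response genes.

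Of 9 mitochondrial ribosomal, nuclear-retained and related RNAs 0 rose (0 at an unadjusted p under 0.05 in limma) and 4 fell. Lars2, the mitochondrial leucine tRNA synthetase (ENSMUSG00000035202, GRCm38 chromosome 9, 123366927 to 123462666), stood at 34223, 16030, 5082, 7202 and 3876 in vehicle and 2204, 2144, 1018, 692 and 915 in the combination (-2.80 ± 0.62, 0.00348). Vehicle was highest in replicate 1 and lowest in replicate 5, and the combination lay below it throughout. Both ribosomal RNAs of mitochondria, mt-Rnr1 (-1.55 ± 0.51, 0.0296) as well as mt-Rnr2 (-1.47 ± 0.48, 0.0267), fell too, and so did Malat1 (-1.07 ± 0.26, 0.00487), an RNA retained in the nucleus. Vehicle replicate 5, the late library, held the lowest vehicle values of Lars2, mt-Rnr1 and mt-Rnr2. With the late number in the model 0 of the 9 genes of this list were called, with differences of -1.60 for Lars2 and -0.27 for mt-Rnr1. The calls of mt-Rnr1 and mt-Rnr2 also ended without vehicle replicate 1 (-1.32 and -1.30), vehicle replicate 2 (-1.36 and -1.29), combination replicate 3 (-1.54 and -1.44) or combination replicate 4 (-1.37 and -1.30), and that of mt-Rnr1 without combination replicate 5 (-1.46). The fusion protein libraries ran from 498 to 4601 for Lars2, and combination minus fusion was -0.21 ± 0.60 (0.803).

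Several of the genes above were among the 12 that rose most or the 12 that fell most. Ndufb4, a subunit of respiratory complex I, went from 65, 42, 55, 64 and 61 to 215, 142, 181, 219 and 398, the only gene to rise by 1 or more (1.08 ± 0.17, 0.000184). Rida, a deaminase of reactive intermediates, went from 458, 450, 460, 534 and 511 to 803, 839, 1196, 1222 and 859 (0.86 ± 0.10, 1.03e-05), and Tceal8 from 910, 862, 864, 995 and 885 to 1473, 1666, 1707, 1783 and 1635 (0.79 ± 0.07, 1.24e-06). Prom1, a membrane glycoprotein of progenitor cells, went from 104, 128, 205, 222 and 156 to 297, 357, 357, 411 and 338 (0.79 ± 0.17, 0.00196), and Rlbp1, a retinaldehyde carrier of glia, from 28, 26, 50, 45 and 54 to 139, 56, 130, 147 and 147 (0.74 ± 0.18, 0.00482). The groups did not overlap for these 5. Rpl36a, Uqcrb, Fabp7, Aspn, Zcchc12, Zfp979 and Nol7 complete the 12, with differences of 0.70 to 0.84. Among the largest decreases were Plec, plectin, which links the cytoskeleton to membranes, from 8559, 6729, 6068, 5605 and 6668 to 3129, 2856, 3130, 2606 and 2890 (-1.16 ± 0.09, 4.15e-07), and Gltscr1, a subunit of a chromatin remodeller, from 333, 276, 251, 204 and 242 to 108, 87, 80, 78 and 60 (-1.001 ± 0.106, 5.43e-06). Atp6v0c, a proton pump subunit, stood at 2590, 1156, 1410, 618 and 2098 and 848, 536, 679, 675 and 543, and its call (-1.004 ± 0.318, 0.0233) ended without vehicle replicate 1 (-0.80), vehicle replicate 5 (-0.87) or combination replicate 2 (-0.95). With trend removal and the late number together Plec (0.00198), Gltscr1 (0.00353), Tceal8 (0.000814) and Rida (0.0136) passed.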

How the data were processed

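Ganglion RNA was sequenced from polyA-selected libraries, per the labels' protocols, and the submitters' processing notes name FastQC, STAR, HTSeq, DESeq2 and build GRCm38 without versions. The authors deposited variance-stabilised log2 values for 36722 genes in 16 libraries and the GC content of each gene in percent, per the file headers. The inverse of a variance-stabilising transform with 2 parameters, estimated from the 60 lowest distinct values, turned 100% of the values into whole scaled values within 0.01; depth is unknown, and no counting interval is given. Near the floor the transform shrinks log2 differences. The deposited p-value columns were not used. Genes with a mean of at least 6.99 were tested in 1 limma 3.58.1 model (R 4.3.3; trend, robust) of all 16 libraries, which share 1 spread per gene, two-sided, with Benjamini-Hochberg adjustment over 13385 genes. In simulated data with independent noise, 100 genes were changed by 0.5 and 100 by 1. The step recovered 81% and 99% of them, with 8 false calls. The simulated data held no trend on GC content, length or late number, so recovery under such trends was not tested. Groups came from the labels. Exonic lengths and coordinates came from GENCODE (GRCm38), and trends were removed per library against GC content and log2 length. Members and the 48 gene lists were chosen with earlier results of these data known. Named genes were the 12 largest changes each way with established symbols, up to 4 lowest-p members of each list with at least 3 called, a panel of 10 signalling genes, and mt-Rnr1, mt-Rnr2, Lars2 and Malat1. Some genes that meet this rule are not reported here. Others are marked as chosen after their values were seen. Alternatives were filters, normalization, centring, model settings, array weights, thresholds, the late number, trend removal and omitted libraries. The omission of replicate 1 of both groups together was chosen after seeing the data. Python 3.11.15 drew the plots.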

Additional observations from a re-analysis of the deposited data

Results flagged for a closer look

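In each gene named in the text, the highest and the lowest library of vehicle and of the combination was set against the other 4 of its group by Dixon's test. Chance alone marks about 5% of groups. Of 300 groups checked 16 were marked, near that share, so the libraries below are listed as a description only. In the combination, replicate 1 stood low for Hsp90b1 (8858, others 10947 to 11413), Kif3a (7047, others 8331 to 8571), Slc17a6 (5519, others 7214 to 7425) and Unc13a (1568, others 2029 to 2219). Replicate 5 stood high for Snap25 (45675, others 36571 to 37924) and Cd163 (305, others 171 to 197), and low for Sbno2 (261, others 367 to 391) and Gadd45g (22, others 53 to 68). Replicate 2 was low for Rlbp1 (56, others 130 to 147), replicate 3 high for Hcn4 (106, others 76 to 83) and replicate 4 low for Myc (127, others 150 to 160). In vehicle, replicate 1 stood high for Il2rg (51, others 42 to 43) and Zfp979 (53, others 19 to 26), replicate 3 for Tyk2 (320, others 261 to 268), and replicate 4 for Psma2 (2164, others 1830 to 1915) and Unc13a (3105, others 2467 to 2602). These values are all scaled values.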

How the results depend on the processing

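Against 3240 genes higher and 1651 lower, a threshold of 0.01 gave 2014 and 977. Removal of GC and length trends left 2591 and 1016, and 1249 and 508 with the late number in addition. The 5 combination libraries against the single late vehicle library gave 333 and 431, where 1 vehicle library is assumed to vary like the other groups. The late number alone gave 2706 and 1533. Omission of single libraries gave 2644 to 3751 higher and 1389 to 1667 lower. The other alternatives stayed within 1.5 times the counts of the report.

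Replicate numbers are shared by vehicle and combination, but the correlations of same-numbered deviations were 0.32, 0.60, -0.15, 0.18 and 0.03, so the numbers were not taken as pairs. With the replicate block 3750 genes were higher and 1959 lower, and 4 of 136 called results of named genes lost their call. Libraries did not all correlate best with their own number (2 of 5 vehicle libraries and 3 of 5 combination libraries did).

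Of these 136 results 86 kept direction and call with trends removed, 95 with the late number, 46 with both and 56 among late numbers only. Differences that changed sign were as follows, and the cause was not tested. With trends removed they were -0.0427 for Cpa3, -0.0739 for Il13ra1, 0.0588 for Il4ra, -0.0173 for Mrgpra3, 0.0979 for Ptger1, 0.0192 for Stat3 and 0.0169 for Unc13a. With trend removal and the late number they were 0.071 for Cd79a, 0.24 for Cebpb, 0.0665 for Cish, -0.0527 for Cpa3, -0.20 for Gap43, -0.036 for Il2rg, 0.25 for Il4ra, 0.0873 for Kif21b, -0.0698 for Mrgpra3, 0.28 for Nfkb2, -0.0152 for Pdk4, 0.17 for Ptger1, -0.0879 for Tsc22d3 and 0.0859 for Unc13a. With the late number alone they were 0.22 for Ccl2, 0.14 for Il1rn and -0.0307 for Il2rg. With quantile normalization it was -0.0225 for Stat6.

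The design limits every result here: the late numbers nearly coincide with the combination, GC content separates the groups, and the depth is unknown. Treatment, numbering and GC trend cannot be told apart for calls that end when they enter the model. Calls that last are not separated from the numbering either. With every combination library late, the late term rests on vehicle replicate 5 and on fusion protein replicates 5 and 6. It assumes the same shift in every group, which was not tested.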

Other observations

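Lists that the report does not describe held few calls. Of 20 glucocorticoid targets 3 rose and 1 fell. Sult1a1, a sulfotransferase, rose by 0.46 ± 0.11 (limma adjusted p = 0.00303) without overlap. Tsc22d3, a classic glucocorticoid-induced gene, rose by 0.28 ± 0.09 (0.019) and Pdk4, a kinase of fuel choice, by 0.37 ± 0.12 (0.0169) with overlap, while Per1 fell (-0.49 ± 0.11, 0.00145). The call of Pdk4 ended without vehicle replicate 3 (0.26), and under both trend removal and the late number Pdk4 turned to -0.0152 and Tsc22d3 to -0.0879. Of 7 mitochondrially encoded mRNAs 1 rose and 1 fell. The one that rose was mt-Co1, a subunit of cytochrome oxidase chosen after its values were seen, at 200166, 246488, 218641, 265103 and 227094 in vehicle and 366503, 358693, 300385, 286241 and 375951 in the combination (0.54 ± 0.11, 0.000967). The one that fell was mt-Nd6, at 313, 457, 175, 1026 and 299 and 92, 219, 133, 99 and 112 (-1.11 ± 0.27, 0.00552). With trends removed 0 of the 7 were higher and 1 lower, with the late number 4 and 0, and with both 0 and 1. The call of mt-Co1 thus ended with trends removed and that of mt-Nd6 with the late number. The list median was 0.25, and -0.09 with trends removed. mt-Nd6 is encoded on the strand opposite to the other mitochondrial mRNAs, and the sources used here do not say whether counting used strand.

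Markers of blood and of neighbouring tissue had summed levels that overlapped between the groups. Of 7 erythrocyte markers 0 were called in limma (0 at an unadjusted p under 0.05), with a summed scaled level of 1552 to 8985 in vehicle and 2490 to 7487 in the combination. Of 7 skeletal muscle and bone markers 0 were called (1 at an unadjusted p), with sums of 272 to 3958 and 320 to 1478. Of 4 adipocyte markers 0 were called (0 at an unadjusted p), with sums of 321 to 740 and 225 to 1270. Of 7 MHC class II genes 0 were called (1 at an unadjusted p), with sums of 2941 to 4492 and 2781 to 6132. Of 11 neutrophil markers 1 fell, Mpo, myeloperoxidase, chosen after its values were seen, from 205, 76, 83, 48 and 47 to 31, 23, 49, 39 and 35 (-0.52 ± 0.17, 0.02), and the call ended without combination replicate 2 (-0.47), while the difference was -0.33 without vehicle replicate 1. Of 6 B cell markers 1 fell, Cd79a, likewise chosen, from 58, 65, 92, 47 and 42 to 41, 32, 37, 34 and 51 (-0.25 ± 0.09, 0.0437), and the call ended without any of 7 of the 10 libraries and turned to 0.071 with trend removal and the late number. Of 3 tested spinal cord markers 1 fell, Hoxb8, a transcription factor of body position, likewise chosen, from 57, 39, 39, 38 and 53 to 12, 43, 25, 25 and 36 (-0.25 ± 0.10, 0.0428), and that call also ended without any of 7 libraries, combination replicate 1 (-0.18) among them.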
